A study of Mus musculus with 2 samples.

Results

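The 10 genes described here are the immediate early transcription factors Myc, Fosl1, Fosl2, Fos, Jun, Junb, Jund, Atf3 and Egr1 and the immediate early response gene Ier3. They were chosen by name, as the rows of the deposited expression table whose gene symbol is on that list, and all 10 were found, each in 1 row, among 11275 rows with 11264 symbols. All 10 passed a filter of a mean of at least 1 FPKM (sequenced fragments scaled to transcript length and to the size of the library), which 10158 symbols passed. The cells were mouse primary VSMCs, the contractile cells of the aortic wall, and the study asked which transcripts change when the zinc finger factor Klf5 is supplied by an adenovirus. One group, Ad-K5, received the adenovirus that encodes Klf5, and the other, Ad-GFP, received the control adenovirus that encodes green fluorescent protein. Both groups therefore carry an adenovirus, and the RNA was taken at a single time more than 1 day after infection, so the first minutes and hours in which these genes usually peak were not sampled. Each group is 1 named library of cultured cells, so every difference given here is a difference between 2 libraries, with no replicate check, no error and no test. The labels give the strain of Ad-K5 as C57BL/7 and that of Ad-GFP as C57BL/6, and a difference of strain cannot be told apart from the infection. Their treatment text speaks of LY1 cells and a lentivirus for shSirt6, which is not what the titles, the cell label and the study's methods describe, and the samples were taken by their titles.

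Immediate early genes are transcribed within minutes of a stimulus such as serum, growth factors, stretch or stress, from promoters that are already poised, and their short-lived mRNAs usually decline again soon after. Fos and Jun proteins are leucine zipper factors that pair with one another to form AP-1. Myc pairs with Max to drive genes of growth and metabolism, and Egr1 is a zinc finger factor of GC-rich promoters. In vascular smooth muscle these factors are known for their induction by angiotensin II, platelet-derived growth factor and vessel injury, and Jun and Egr1 are among the genes tied to the growth of these cells.

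To show the DNA next to which these genes start, the 250 bases before the RefSeq start (GRCm38.p6) are printed for Atf3, Jun and Fos. Atf3 and Jun had the largest ratios among the 7 members with a window in the RefSeq promoter table used here, and Fos had the lowest level of all 10. The 3 members without a window there were Myc, Fosl1 and Egr1. Each run is written 5′ to 3′ on the strand of the gene and ends at the base before the start. Capitals mark exact matches, on either strand, of the GC box GGGCGG, the CACCC box CACCC and the TATA box TATAAA.
Atf3, chr1:191183334-191183583, minus strand: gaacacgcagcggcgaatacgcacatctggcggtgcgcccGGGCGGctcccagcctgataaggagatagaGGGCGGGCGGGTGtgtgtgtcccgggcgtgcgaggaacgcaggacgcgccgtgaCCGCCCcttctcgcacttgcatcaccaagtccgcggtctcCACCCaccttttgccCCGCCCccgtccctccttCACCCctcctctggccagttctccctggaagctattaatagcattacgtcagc
Jun, chr4:95052223-95052472, minus strand: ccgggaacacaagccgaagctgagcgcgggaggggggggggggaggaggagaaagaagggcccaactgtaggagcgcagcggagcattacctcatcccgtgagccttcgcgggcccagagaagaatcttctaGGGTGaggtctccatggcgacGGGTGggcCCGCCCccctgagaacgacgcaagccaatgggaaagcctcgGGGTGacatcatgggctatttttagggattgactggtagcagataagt
Fos, chr12:85473640-85473889, plus strand: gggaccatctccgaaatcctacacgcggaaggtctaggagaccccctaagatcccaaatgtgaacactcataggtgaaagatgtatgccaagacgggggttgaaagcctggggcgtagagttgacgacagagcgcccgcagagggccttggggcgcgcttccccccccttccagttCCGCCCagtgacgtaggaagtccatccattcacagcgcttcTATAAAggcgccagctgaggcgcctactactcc

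The Atf3 window held 8 matches, 5 of the GC box and 3 of the CACCC box, and 3 of the 8 overlap one another in its longest run of capitals. The Jun window held 4 matches, 3 of the CACCC box and 1 of the GC box, and the Fos window held 1 GC box and 1 TATA box. Over all 7 windows the GC box was present in 5 and the CACCC box in 5, against 32.7% and 52.0% of all 32851 windows of this length in the table. The GC and CACCC boxes are the kind of sequence that Sp1 and Krüppel-like factors are known to bind. The TATA box was found in the Fos window only of the 7, against 12.4% of all windows. Exact letters of the AP-1 site TGAGTCA, the cyclic AMP element TGACGTCA, the E-box CACGTG and the CArG box were found in 0 of the 7 windows, against 4.46%, 1.55%, 6.02% and 1.47% of all windows. The windows of Atf3, Jun and Fos were 65.2%, 61.2% and 58.4% G or C, with a median of 52.4% over all windows. A match describes letters only. The RefSeq start used for Atf3 lies inside the GENCODE locus of the gene, far downstream of its outermost start at 191218039, so the Atf3 window is not the sequence before that outermost start. The window of Fosl2 also lies inside its locus, and that of Jund lies away from the annotated start of the gene.

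Of the 10 members, 2 were at least 2-fold higher in Ad-K5 than in Ad-GFP, Myc and Fosl1, and 0 were at least 2-fold lower. Among all 10158 measured genes, 0.975% reached 2-fold on the higher side and 0.679% on the lower side. The fold was read from log2(FPKM + 1), so the change of a weakly expressed gene comes out smaller than its plain ratio. The ratio was above 0 for 9 of the 10 members, all but Egr1, against 47.9% of all measured genes. Their median log2 ratio was 0.42, with a median of -0.02 over all measured genes. The middle of the whole table was narrow, with its 25th percentile at -0.25 and its 75th at 0.21, its 5th at -0.60 and its 95th at 0.56.

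**Figure D1:**
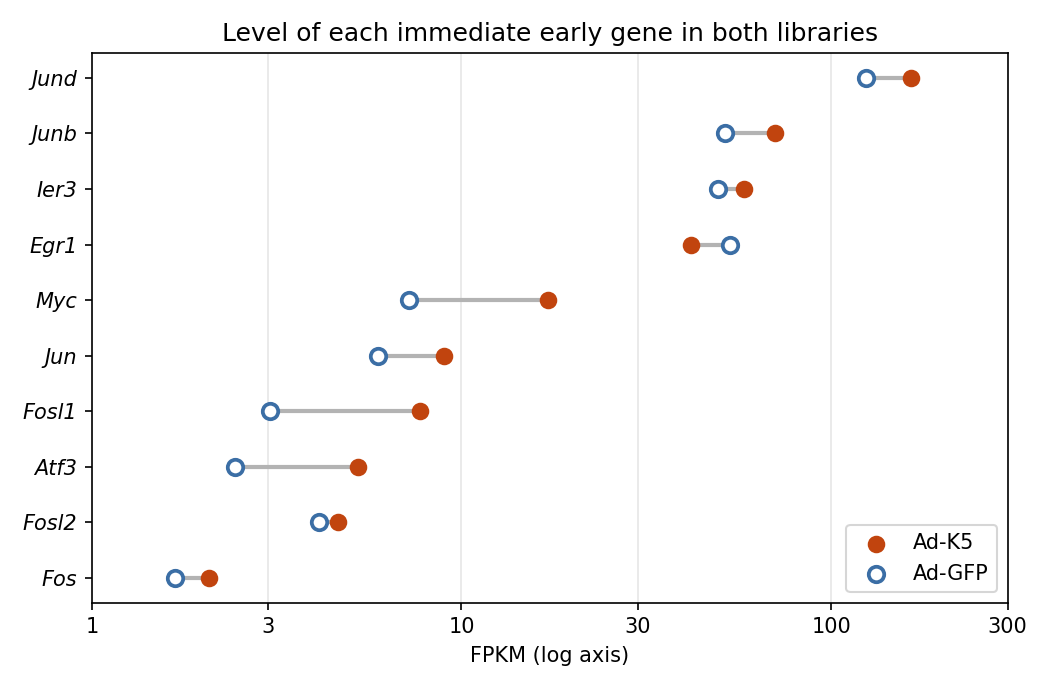
FPKM of each of the 10 members (log axis), with the Ad-K5 library as a filled point and the Ad-GFP library as an open one, ordered by level in Ad-K5. Jund stood highest at 164 FPKM in Ad-K5 and 124 in Ad-GFP, Myc and Fosl1 show the widest gaps, and Egr1 is the one gene whose Ad-K5 point lies to the left.

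Myc (ENSMUSG00000022346.15, chr15:61985391-61990374, plus strand), the factor that with Max activates genes of ribosome building, nucleotide supply and cell growth, had 17.1 FPKM in Ad-K5 and 7.21 FPKM in Ad-GFP. The log2 ratio was 1.14, or 2.21-fold after the pseudocount of 1. A ratio at least as high was found for 62 of the 10158 measured genes, Myc included, which puts Myc at percentile 99.4. Its mean level was unremarkable, at percentile 59.6 of the measured genes. In RNA from a whole culture, fewer cells of a type and less RNA per cell cannot be told apart, for this gene or for any other below.

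Fosl1 (ENSMUSG00000024912.5, chr19:5447703-5455945, plus strand) encodes Fra-1, a Fos protein without the strong activation domain of Fos that usually appears later and lasts longer. It had 7.74 FPKM in Ad-K5 and 3.04 FPKM in Ad-GFP, a log2 ratio of 1.12 (2.17-fold), and 69 measured genes had a ratio at least as high. The Fosl1 locus overlaps Ccdc85b, which had 95.5 FPKM in Ad-K5 and 93.9 FPKM in Ad-GFP, a log2 ratio of 0.02. The neighbour thus stood far above Fosl1 in level and showed no gap of its own, and how reads in the overlap were assigned was not tested.

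Fosl2 (chr5:32135801-32157842, plus strand), which encodes the related Fra-2, had 4.64 FPKM in Ad-K5 and 4.11 FPKM in Ad-GFP, a log2 ratio of 0.14. Fos (chr12:85473890-85477273, plus strand), the founding member and the one with the most transient mRNA, had 2.08 FPKM in Ad-K5 and 1.68 FPKM in Ad-GFP, a log2 ratio of 0.20. Both were inside the middle range of the table, at percentiles 68.5 and 74.3. Fos was the lowest of all 10 members in both libraries, at percentile 10.4 of the measured genes by mean level. The summed FPKM of the 3 Fos genes was 14.5 in Ad-K5 and 8.83 in Ad-GFP, a log2 ratio of the sums of 0.65. Within that sum Fosl1 made up 53.5% in Ad-K5 and 34.4% in Ad-GFP, while Fosl2 made up 32.1% in Ad-K5 and 46.6% in Ad-GFP, and Fos 14.4% in Ad-K5 and 19.0% in Ad-GFP. The leading Fos gene was therefore Fosl1 in the Ad-K5 library and Fosl2 in the Ad-GFP library. Fosb is not listed in the table.

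The 3 Jun genes, whose proteins are the partners that every AP-1 dimer of the Fos type needs, each consist of 1 exon. Jun (chr4:95049034-95052222, minus strand), the strongest activator of the family, had 8.98 FPKM in Ad-K5 and 5.94 FPKM in Ad-GFP, a log2 ratio of 0.53. Junb (chr8:84974484-84978718, minus strand), which can oppose Jun at some growth genes, had 70.4 FPKM in Ad-K5 and 51.7 FPKM in Ad-GFP, a log2 ratio of 0.44. Jund (chr8:70698949-70700616, plus strand), the member that resting cells keep at a steady level, had 164 FPKM in Ad-K5 and 124 FPKM in Ad-GFP, a log2 ratio of 0.40. All 3 were under 2-fold and close to one another in ratio, at percentiles between 89.0 and 93.8 of all measured genes. Each of the 3 loci overlaps another annotated gene. Of these only Prdx2, beside Junb, is listed in the table, at 112 FPKM in Ad-K5 and 110.0 FPKM in Ad-GFP.

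The family was dominated by Jund, with 67.4% of the summed FPKM in Ad-K5 and 68.3% in Ad-GFP. Junb made up 28.9% in Ad-K5 and 28.5% in Ad-GFP, and Jun made up 3.69% in Ad-K5 and 3.27% in Ad-GFP. Unlike the Fos genes, the Jun genes kept the same order and nearly the same shares in both libraries. The summed FPKM was 243.7 in Ad-K5 and 181.6 in Ad-GFP, a log2 ratio of the sums of 0.42. The Jun sum was 16.8 times the Fos sum in Ad-K5 and 20.6 times in Ad-GFP, so Jun family mRNA far outweighed Fos family mRNA in both.

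Atf3 (ENSMUSG00000026628.13, chr1:191170296-191218039, minus strand), a stress-induced repressor that pairs with Jun proteins, had 5.25 FPKM in Ad-K5 and 2.45 FPKM in Ad-GFP. With the pseudocount its log2 ratio was 0.86, or 1.81-fold, under the threshold. Without any pseudocount the plain ratio of the FPKM values was 2.15. Only Myc and Fosl1 had larger ratios among the members, and 154 measured genes had a ratio at least as high, which puts it at percentile 98.5.

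Egr1 (ENSMUSG00000038418.7, chr18:34859823-34864984, plus strand), the zinc finger factor induced by injury and stretch, had 41.8 FPKM in Ad-K5 and 53.3 FPKM in Ad-GFP, a log2 ratio of -0.34. It was the only member with a ratio below 0, at percentile 17.4, and was under 2-fold. Ier3 (chr17:35821684-35822923, plus strand), a short protein that limits apoptosis, had 57.9 FPKM in Ad-K5 and 49.4 FPKM in Ad-GFP, a log2 ratio of 0.23. Both Junb and Ier3 stood above Egr1 in the Ad-K5 library and below it in the Ad-GFP library.

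By level the members fell into 4 genes above 40 FPKM in both libraries, Jund, Junb, Ier3 and Egr1, and 6 genes under 20 FPKM in both, Myc, Jun, Fosl1, Atf3, Fosl2 and Fos. The 3 largest ratios, of Myc, Fosl1 and Atf3, were all among the 6 lower genes, but so were the small ratios of Fosl2 and Fos. In the order of levels, Fosl1 and Atf3 stood above Fosl2 in Ad-K5 and below it in Ad-GFP. With 1 library per group, whether neighbours in these orders differ beyond the spread between cultures was not tested.

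**Figure D2:**
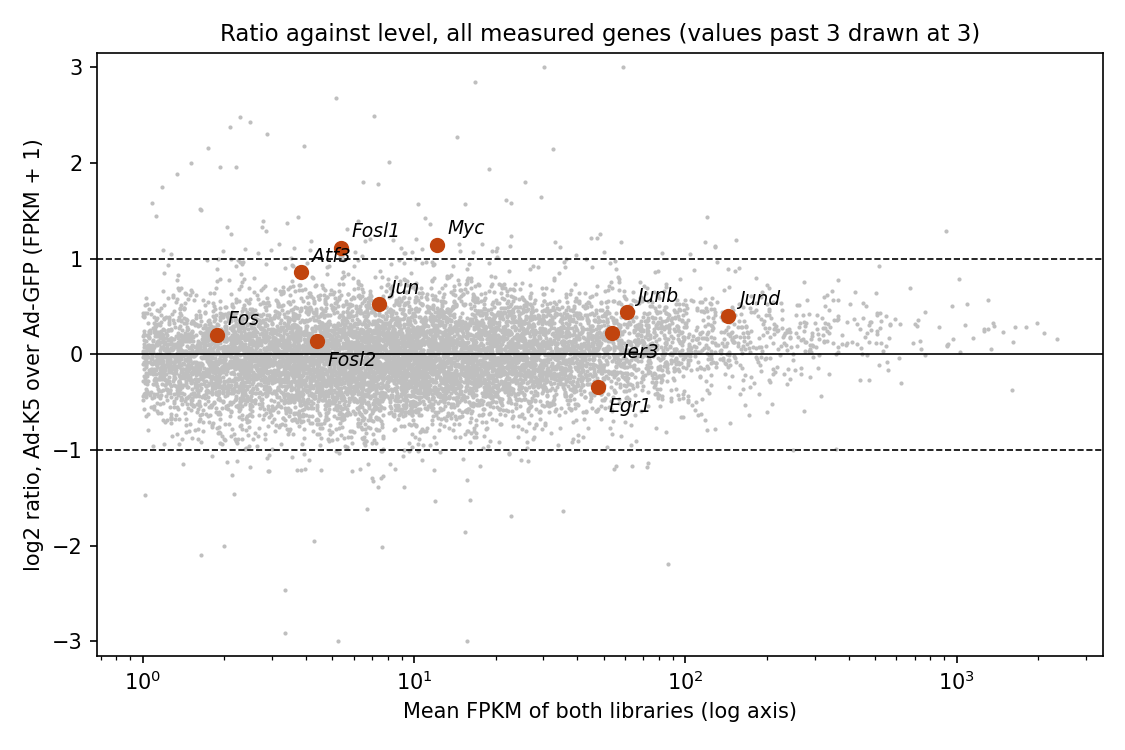
Log2 ratio of Ad-K5 over Ad-GFP, after adding 1 to each FPKM, against the mean FPKM of both libraries (log axis) for the 10158 measured genes in grey, with the 10 members in orange. Dashed lines mark 2-fold, past which lie Myc at 1.14 and Fosl1 at 1.12, with Atf3 at 0.86 just inside and Egr1 the one member below 0.

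The members share a compact gene structure that their choice by name did not use. In the GENCODE vM21 annotation they have at most 4 exons, a median of 2.5 against 9 for the measured genes, and 20.5% of measured genes have so few. The median exon length was 2326.5 bases for the members and 4334 bases for the measured genes. All 10 also carried the pentamer ATTTA in the 3′ untranslated region, as did 70.8% of measured genes with such a region of at least 100 bases. It is the core of the AU-rich elements through which short-lived mRNAs are degraded. The median of the members was 2.89 copies per kilobase, against 1.26 over those 9725 genes, and all 10 lay above that value. Ier3 was densest, with 5 copies or 8.16 per kilobase, and Fosl1 sparsest, with 1 copy or 1.57 per kilobase. Myc had 2 copies, or 4.52 per kilobase, and Fos had 4, or 4.91 per kilobase. The density did not order the members by ratio: Ier3 and Fos were both under 2-fold, and of the members past 2-fold Myc was dense and Fosl1 sparse.

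Gene length moved with the ratio over the whole table. The measured genes were split into 4 groups of equal size by exon length. In the group with the shortest exons, up to 2737 bases, the median log2 ratio was 0.11 and 2.13% of genes were at least 2-fold higher in Ad-K5. In the group with the longest exons the median was -0.13 and 0.158% were at least 2-fold higher. The 7 members Myc, Fosl1, Fos, Junb, Jund, Atf3 and Ier3 belong to the shortest group, Jun to the next, Egr1 to the one after and Fosl2 to the longest. When each ratio was centred on the median of its own length group, the median of the members was 0.31. Myc (1.04) and Fosl1 (1.01) were still at least 2-fold higher, but both lay close to the threshold. For the lists below, the centred counts are given where they change a call.

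**Figure D3:**
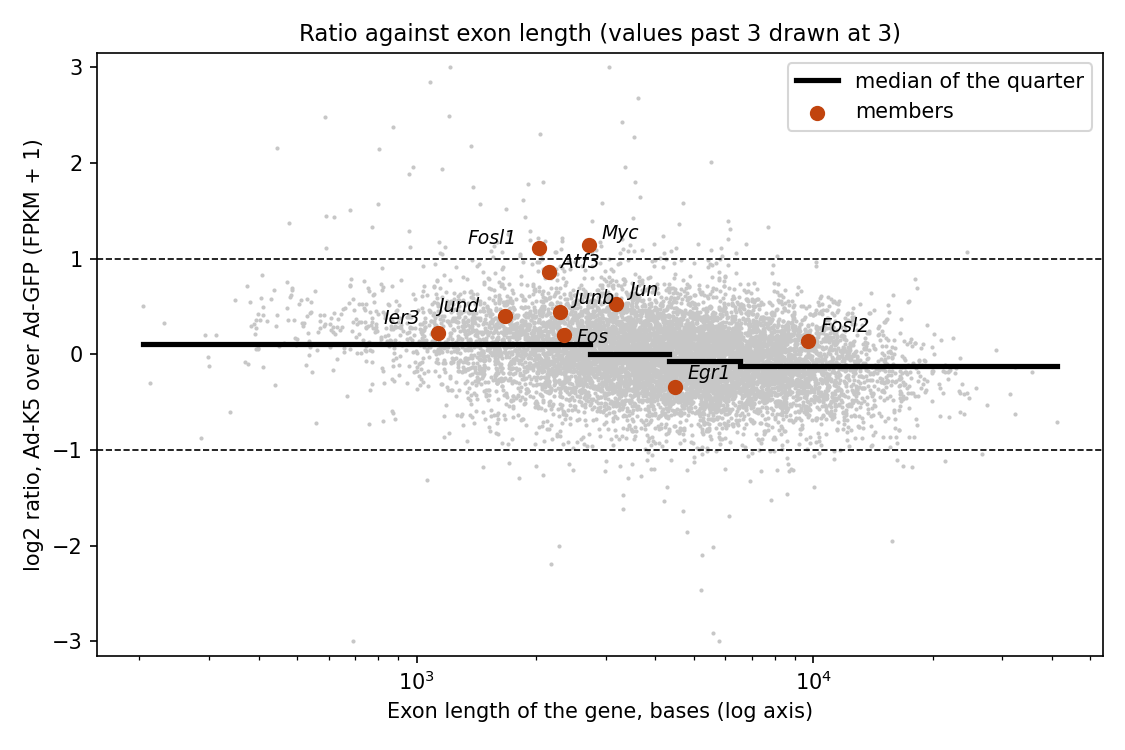
Log2 ratio of Ad-K5 over Ad-GFP, after adding 1 to each FPKM, against the exon length of each gene in bases (log axis), with measured genes in grey, the 10 members in orange and the median of each of the 4 length groups as a black line. The black line steps down from 0.11 to -0.13 as length increases, and 7 members lie over its first step.

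Other immediate early genes were read from lists that exclude the members. Of 24 other immediate early transcription factors, 20 are listed in the table and 18 were measured. Of these, 1 was at least 2-fold higher in Ad-K5 and 0 were at least 2-fold lower, 14 had a ratio above 0, and the median was 0.25. After centring within the length groups 0 of the 18 were at least 2-fold higher, and the median was 0.21. The gene past 2-fold without centring was Id1, which encodes a helix-loop-helix protein that blocks differentiation factors from binding DNA, at 140.2 FPKM in Ad-K5 and 67.3 FPKM in Ad-GFP (log2 ratio 1.05). Its relative Id2 had 35.2 FPKM in Ad-K5 and 18.5 FPKM in Ad-GFP (0.90). The Krüppel-like factors Klf4, with 17.4 FPKM in Ad-K5 and 9.49 FPKM in Ad-GFP (0.81), and Klf6, with 11.3 FPKM in Ad-K5 and 7.11 FPKM in Ad-GFP (0.60), came next in size. Egr3, Egr4 and Nr4a3 are not listed, and Egr2 and Nr4a2 were under the filter.

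Among 36 other immediate early effectors, which include secreted proteins, phosphatases and mRNA decay factors, 31 were measured, and 3 reached 2-fold on the higher side and 0 on the lower. The ratio was above 0 in 26, and the median was 0.30. Cyr61, a matricellular protein of stimulated fibroblasts and smooth muscle, had 66.6 FPKM in Ad-K5 and 28.1 FPKM in Ad-GFP (log2 ratio 1.22). Ccl2, the chemokine that draws monocytes, had 164 FPKM in Ad-K5 and 72.2 FPKM in Ad-GFP (1.17). Odc1, the first enzyme of polyamine synthesis and a known Myc target, had 26.6 FPKM in Ad-K5 and 12.02 FPKM in Ad-GFP (1.09). The urokinase receptor gene Plaur was under 2-fold, with 18.5 FPKM in Ad-K5 and 9.28 FPKM in Ad-GFP (0.92). The 3 genes of the Zfp36 family, whose proteins bind AU-rich elements and degrade such mRNAs, had ratios between 0.30 and 0.87, all above 0 and all under 2-fold, and were singled out after their values were seen.

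**Figure D4:**
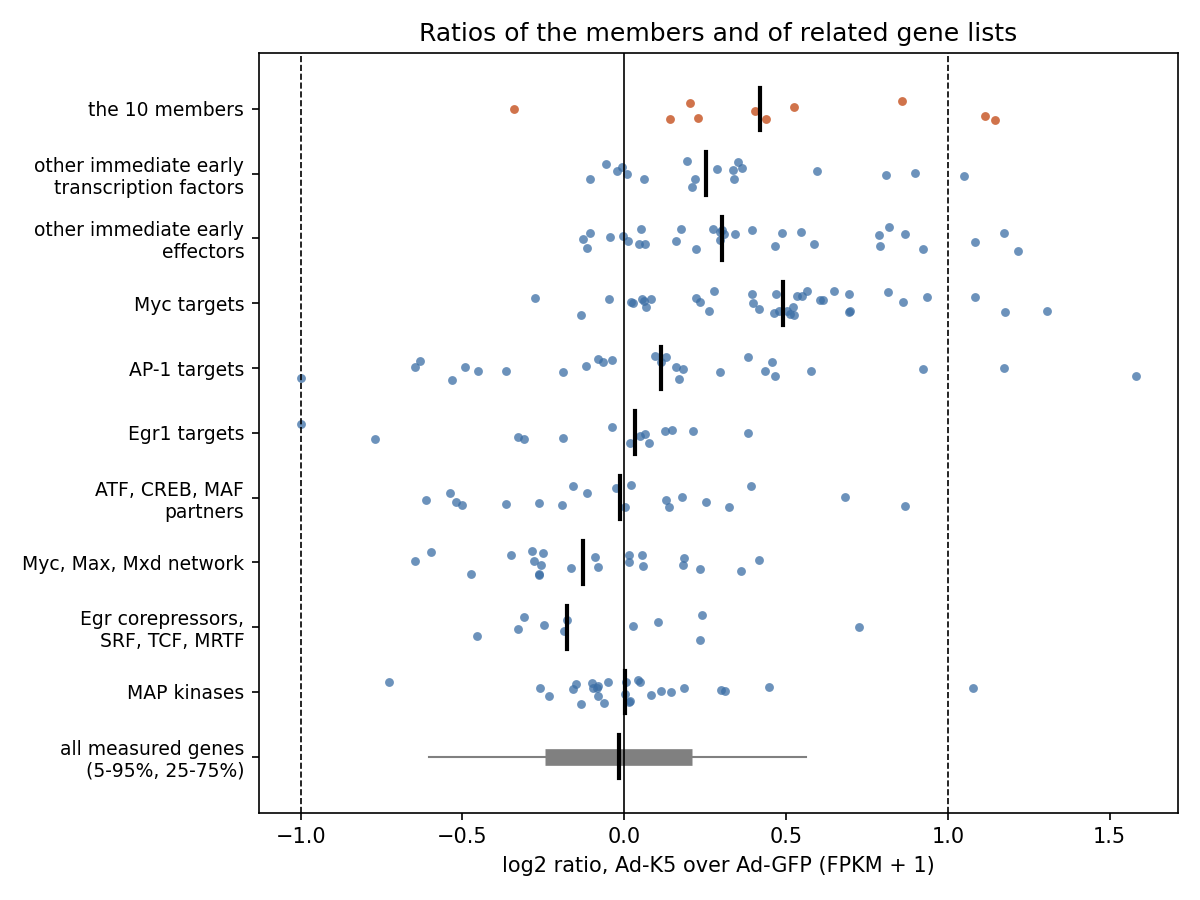
Log2 ratio of Ad-K5 over Ad-GFP, after adding 1 to each FPKM, for every measured gene of the members' list (orange) and of 9 related lists (blue), with a black bar at each median and, in the bottom row, the 5th to 95th and 25th to 75th percentiles of all measured genes. The medians of the members (0.42), of the other immediate early transcription factors (0.25) and effectors (0.30) and of the Myc targets (0.49) lie above the 75th percentile of all genes (0.21), while those of the Myc, Max and Mxd network and the MAP kinases lie within the middle of it.

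Genes for other leucine zipper proteins, many of which can pair with Fos, Jun or Atf3, had ratios on both sides of 0. Of 30 other ATF, CREB and MAF leucine zipper genes, 20 were measured, 0 passed 2-fold in either direction, 10 had a ratio above 0 and the median was -0.01. Atf4, the translation-controlled factor of the amino acid response and an activator of Atf3, had 197 FPKM in Ad-K5 and 107 FPKM in Ad-GFP, a log2 ratio of 0.87. Nfe2l2, the factor of the oxidative stress response, had 30.4 FPKM in Ad-K5 and 18.6 FPKM in Ad-GFP (0.68). At the other end Atf7 had 5.31 FPKM in Ad-K5 and 8.64 FPKM in Ad-GFP (-0.61), and Nfe2l1 had 13.3 FPKM in Ad-K5 and 19.8 FPKM in Ad-GFP (-0.54).

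In the network of Max-binding proteins and Myc cofactors, 22 of 27 genes were measured and 0 passed 2-fold in either direction. The ratio was above 0 in 9, and the median was -0.13, or -0.07 after centring within the length groups. Max, the partner of Myc, had 8.80 FPKM in Ad-K5 and 7.63 FPKM in Ad-GFP (log2 ratio 0.18), so the level of Myc relative to Max was larger in the Ad-K5 library. The largest ratios by size included those of Trrap, a scaffold of histone acetyltransferases that Myc recruits (11.5 FPKM in Ad-K5 and 18.6 in Ad-GFP, -0.65), of Huwe1, a ubiquitin ligase of Myc (7.15 in Ad-K5 and 11.3 in Ad-GFP, -0.60), and of Mxd4 (14.6 in Ad-K5 and 20.7 in Ad-GFP, -0.47). The 5 measured repressors of the Mxd and Mnt type, which compete with Myc for Max, were Mxd1, Mxd3, Mxd4, Mxi1 and Mnt. All 5 had ratios below 0, between -0.47 and -0.25. They were grouped after their values were seen, and each was under 2-fold.

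Upstream of Egr1 and Fos, the serum response factor, its ternary complex and myocardin-related cofactors and the Egr corepressors were represented by 11 genes. All 11 were measured, 0 passed 2-fold in either direction, 5 had a ratio above 0 and the median was -0.18. After centring within the length groups the median was -0.05. Srf itself had 20.2 FPKM in Ad-K5 and 17.0 FPKM in Ad-GFP (log2 ratio 0.23). Fhl2, a LIM protein of the SRF pathway, had 5.94 FPKM in Ad-K5 and 3.19 FPKM in Ad-GFP (0.73). Nab2, the corepressor that Egr1 induces and that restrains it, had 32.2 FPKM in Ad-K5 and 40.1 FPKM in Ad-GFP (-0.31), a ratio close to that of Egr1. Ets2 had 11.8 FPKM in Ad-K5 and 16.5 FPKM in Ad-GFP (-0.45), and Mkl1, the actin-sensing cofactor of SRF, had 24.4 FPKM in Ad-K5 and 30.9 FPKM in Ad-GFP (-0.33).

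Known targets of the members were read from 3 lists, chosen with earlier results of these data known. Of all measured genes, 0.975% were at least 2-fold higher in Ad-K5 and 47.9% had a ratio above 0. All 38 Myc targets were measured, 3 were at least 2-fold higher in Ad-K5, 0 were at least 2-fold lower, 35 had a ratio above 0 and the median was 0.49. After centring within the length groups the median was 0.50, 36 were above 0 and 4 were at least 2-fold higher. Tfrc, the transferrin receptor gene, had 8.49 FPKM in Ad-K5 and 2.84 FPKM in Ad-GFP (log2 ratio 1.31), Srm, spermidine synthase, had 80.8 FPKM in Ad-K5 and 35.2 FPKM in Ad-GFP (1.18), and Odc1 is the gene given above, which both lists share. Gnl3, the nucleolar GTPase nucleostemin, had 4.98 FPKM in Ad-K5 and 2.13 FPKM in Ad-GFP (0.94). Without centring, the genes past 2-fold were thus 1 iron transport gene and 2 enzymes of polyamine synthesis.

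Of 32 AP-1 targets 27 were measured, 2 were at least 2-fold higher, and 1 was at least 2-fold lower, while the ratio was above 0 in 15 and the median was 0.11. Ccnd1, cyclin D1, had 34.7 FPKM in Ad-K5 and 10.9 FPKM in Ad-GFP (log2 ratio 1.58), the largest ratio in the list, and Ccl2 was the other. Fn1, fibronectin, had 166 FPKM in Ad-K5 and 333 FPKM in Ad-GFP, which lies at the threshold itself. After centring within the length groups 0 genes of this list were at least 2-fold lower, so the call of Fn1 was lost, while 2 were still higher. Of 20 Egr1 targets 14 were measured, 0 were at least 2-fold higher, 1 was at least 2-fold lower, Fn1 again, and after the same centring 0 were. The ratio was above 0 in 8, and the median was 0.03. The others furthest from 0 in that list were Abca2, with 25.3 FPKM in Ad-K5 and 43.9 FPKM in Ad-GFP (-0.77), Thbs1, with 21.5 FPKM in Ad-K5 and 16.3 FPKM in Ad-GFP (0.38), and Ptpn1, with 32.6 FPKM in Ad-K5 and 41.2 FPKM in Ad-GFP (-0.33). Among these 3 lists the shift was thus widest for the Myc targets and not seen in the median of the Egr1 targets. Whether the lists differ was not tested.

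Klf5, the gene that the virus carries, had 2.62 FPKM in Ad-K5 and 1.76 FPKM in Ad-GFP, a log2 ratio of 0.39. Its direction follows the labels, but it is under 2-fold. It lies between the 75th percentile (0.21) and the 95th (0.56) of all measured genes, so many other genes had as high a ratio. Whether the value counts the viral transcript is not known. The FPKM values summed to 300045 in Ad-K5 and 278962 in Ad-GFP, and without read counts the depth of either library is unknown. Of 15 smooth muscle markers 8 were measured, with a summed level of 364 FPKM in Ad-K5 and 375 FPKM in Ad-GFP. Acta2 and Tagln were present, but Myh11 and Myocd, which define the contractile state, are not listed. Of 15 mesothelial markers 9 were measured, all 9 had a ratio above 0, from 0.10 to 3.33, and 5 were at least 2-fold higher in Ad-K5, with a summed level of 272 FPKM in Ad-K5 and 133 FPKM in Ad-GFP. The mesothelial genes Wt1, Lrrn4, Krt8, Muc16, Bnc1 and Rspo1 are not listed. Of 15 fibroblast markers 10 were measured and 9 had a ratio below 0, with a summed level of 825 FPKM in Ad-K5 and 1005 FPKM in Ad-GFP. In that list 1 was at least 2-fold higher, Ly6a, with 12.8 FPKM in Ad-K5 and 1.45 FPKM in Ad-GFP (log2 ratio 2.49). Another 1 was at least 2-fold lower, Pdgfra (-1.39). Only 2 of 12 endothelial and 2 of 14 leukocyte markers are listed, and the defining Pecam1, Cdh5 and Ptprc are not. The summed level was thus higher in Ad-K5 for the mesothelial markers and lower for the fibroblast markers. For the smooth muscle markers the sum was only slightly lower in Ad-K5, while most of their ratios were above 0. Acta2 made up much of that sum, with 201 FPKM in Ad-K5 and 229 FPKM in Ad-GFP. Whether the make-up of the cultures had a part in the ratios of the members was not tested.

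**Figure D5:**
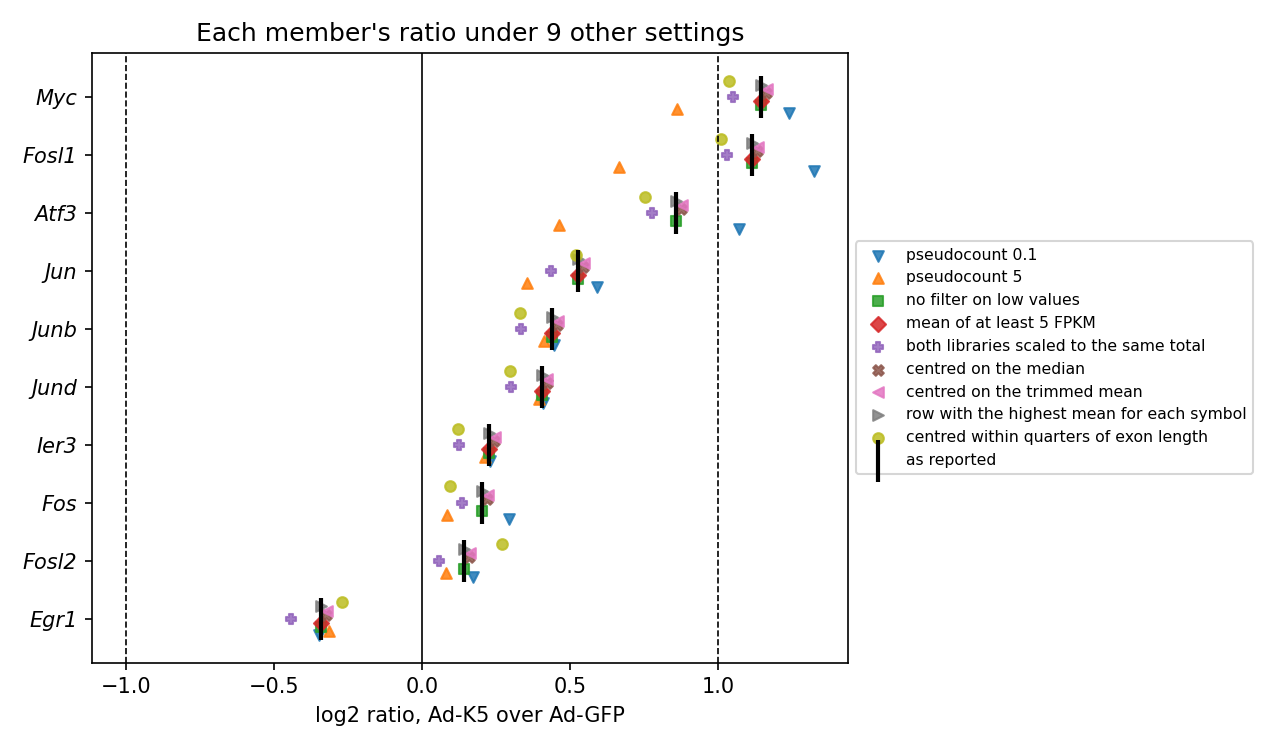
Log2 ratio of Ad-K5 over Ad-GFP for each member as reported (black bar) and under 9 other settings of pseudocount, filter, scaling, row choice and length centring (symbols), with dashed lines at 2-fold. Myc and Fosl1 drop below the line with a pseudocount of 5 only, Atf3 crosses it with a pseudocount of 0.1 only, and no member changes sign. Only the scaling and centring settings could change a sign, and the filter and row choice settings repeat the reported ratio by construction.

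The choice of pseudocount decided the count of members past 2-fold. With a pseudocount of 5 it was 0, as Myc had a log2 ratio of 0.86 and Fosl1 of 0.67. With a pseudocount of 0.1 it was 3, as Atf3 had 1.07. Under the other 7 settings it was 2. Among these, the filter and row choice settings could not change the ratio of a member, since each member has 1 row. The sign of the ratio was the same for every member under every setting in which it was measured, 9 above 0 and Egr1 below, with Egr1 between -0.44 and -0.27. The settings of pseudocount, filter and row choice could not alter a sign, so only those of scaling and centring bear on it.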

How the data were processed

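RNA of mouse primary VSMCs infected with Ad-K5 or Ad-GFP was sequenced, with 1 named library each. The library protocol in the labels marks strand with dUTP. Per the submitters' notes the tools were cutadapt, HISAT2 2.0.5, StringTie and STAR 2.5.2b, without their roles, and the build was mm8, while the coordinates of the table are those of GRCm38. GENCODE vM21 holds 11255 of the 11275 gene IDs. The authors deposited FPKM for each named library. A further 2 columns hold the authors' mean log2(FPKM + 1) of groups numbered 1 and 2, which no label ties to a condition or a sample. They were not used, so the calls rest on the named libraries alone. The authors' columns of fold change, p-values and q-values hold their own comparison and were not used. Some rows may not be analysed here.

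FPKM of rows with the same symbol was summed, and log2((Ad-K5 + 1)/(Ad-GFP + 1)) was computed where the mean reached 1 FPKM. A gene was called at 2-fold. With 1 library per group no test was made. Without read counts, depth and counting error are unknown. FPKM can be compared between genes, since it is per length, but reads of overlapping genes may be shared.

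The members and all 16 context and marker lists were chosen with earlier results of these data known. The named genes are all members, Klf5, at most 4 genes of each context list with the largest ratio by size and those past 2-fold; some genes that this rule names are not reported here. Others are said to be chosen after their values were seen or stand as markers or partners. Promoters are from RefSeq (GRCm38.p6), of which 7 members matched, and exon and untranslated lengths are from GENCODE vM21. The ratio and the 2-fold call were tested on simulated data, with changes well past 2-fold planted in genes of higher level. That simulation did not cover calls of low genes near 2-fold, nor the other steps. Protein sequences were not used here. The calculations used Python 3.11.15, numpy 2.4.6, pandas 2.3.3 and matplotlib 3.10.9.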

Additional observations from a re-analysis of the deposited data

How the results depend on the processing

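Of 87 member values under 9 alternatives, 84 kept their side of 2-fold, 2 fell under it and 1 passed it. Those that fell were Myc at 0.86 and Fosl1 at 0.67 on the log2 scale, both with a pseudocount of 5. The 1 that passed was Atf3 at 1.07 with a pseudocount of 0.1. None reversed. The 84 include every value under the filter and row choice settings, which repeat the reported ratio by construction, since each member has 1 row. Only the pseudocount, scaling and centring settings could move a member across 2-fold. With a pseudocount of 0.1, 159 genes reached 2-fold on the higher side and 189 on the lower side, and 3 members were higher, against 99 and 69 genes and 2 members as reported. With a pseudocount of 5, 33 genes were higher, 19 were lower and 0 members were higher. The change follows from the pseudocount itself, which shrinks the ratios of low genes. With a minimum mean of 5 FPKM, 6713 genes were compared, of which 65 were higher and 45 lower, and 7 members were measured, 6 of them above 0, since fewer genes pass. With both libraries scaled to the same total, the median of the members was 0.32 and 107 genes were lower. Centred within 4 groups by exon length, the median of the members was 0.31. Over all alternatives the median of the members was between 0.31 and 0.44.

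The main limit is 1 named library per group. No paired analysis was possible because each condition has 1 library, and leaving out a replicate could not be done. CPM from counts was not run because the table holds FPKM. The difference of the authors' group means was not run as a signed alternative, since no label ties their numbers to a condition. No interval can be given without counts.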

Other observations

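Among the MAP kinases that lead to AP-1, 27 of 31 genes were measured, 1 was at least 2-fold higher in Ad-K5, 0 were at least 2-fold lower, 14 had a ratio above 0 and the median log2 ratio was 0.00. Mapk14, which encodes the stress kinase p38 alpha, had 27.5 FPKM in Ad-K5 and 12.5 FPKM in Ad-GFP (1.08). Map2k7, a kinase that activates JNK, had 8.56 FPKM in Ad-K5 and 14.8 FPKM in Ad-GFP (-0.73), and Map2k4, the other activator of JNK, had 9.58 FPKM in Ad-K5 and 6.76 FPKM in Ad-GFP (0.45). The mRNA of the kinases says nothing of their activity.

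All 18 proliferation markers were under 2-fold, 13 had a ratio above 0 and the median was 0.12. Ccna2, cyclin A2, had 58.4 FPKM in Ad-K5 and 43.4 FPKM in Ad-GFP (0.42), while Mki67 had 15.4 FPKM in Ad-K5 and 21.3 FPKM in Ad-GFP (-0.44). Of 21 interferon response genes 19 were measured, 1 was at least 2-fold higher, 0 were at least 2-fold lower and the median was 0.11. After centring within the length groups 0 were at least 2-fold higher, so the call of Cxcl10 was lost, and the median was 0.01. Cxcl10, an interferon-induced chemokine, had 68.5 FPKM in Ad-K5 and 32.0 FPKM in Ad-GFP (1.07) and Ifit1 had 139 FPKM in Ad-K5 and 75.1 FPKM in Ad-GFP (0.88), while Ifit3 had 75.9 FPKM in Ad-K5 and 120 FPKM in Ad-GFP (-0.66). Both cultures carried an adenovirus, and the dose of virus in each was not measured here.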
